A study of Mus musculus with 12 samples.

Results

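The genes described here are 9 genes named for clotting and for the activation of plasminogen, out of 19938 genes with a symbol of their own on the arrays. They are the clotting factors F10, F7, F5 and F13a1, the adhesion genes F11r and Thbs1, and the plasminogen activation genes Plau, Plaur and Serpinb2. The members were chosen by symbol with earlier results of these data known, and each was read through the probe set annotated with that symbol alone, the brightest over the 12 arrays where a gene had several. All 9 had 1 such probe set. A value is called above background when it exceeded the 95th percentile of 1027 olfactory receptor genes on the same array, and these genes are used because sorted leukocytes should not express them.

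The arrays measured flow-sorted cells of C57BL/6 mice, with 1 array for each of 12 conditions, 8 from tumor-bearing and 4 from normal mice. The tumor was the GL261 glioma, a mouse line grown in the brain of syngeneic animals. The labels give the same text for every array, normal mice included, namely an age of 7 weeks at implantation and 2 weeks of tumor growth. From the brain came microglia (MG), sorted as cells positive for CD11b with low CD45, and macrophages (MP), with high CD45, each from normal and from tumor brain. Gr1+ and Gr1- cells, split by a surface antigen of monocytes and granulocytes, were sorted from tumor brain and from blood of the same kind of mice. Blood also gave arrays labelled macrophage high and macrophage low, for tumor-bearing and for normal animals. The gate behind high and low and the number of mice per array are not given in the sources used here. With 1 array per condition there is no replicate error, no comparison was tested and no p-value is given. Fewer cells of a type and less RNA per cell cannot be told apart on these arrays.

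Clotting is a chain of proteases. Factor VII, together with tissue factor, activates factor X, which joins factor V to turn prothrombin into thrombin, and the fibrin that thrombin makes is then cross-linked by factor XIII. Most of these factors are made by the liver, but monocytes and macrophages are known to make factors VII, X and the XIII A chain, and platelets carry factor V, factor XIII and thrombospondin. Fibrin is removed by plasmin, which the urokinase encoded by Plau makes from plasminogen at the receptor encoded by Plaur, and Serpinb2 encodes an inhibitor of urokinase. F11r encodes junctional adhesion molecule A and has no known part in the clotting chain, in spite of its symbol.

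Some arrays went against their labels or carried markers of other cells, which bears on every value given later. Of 7 NK cell markers, 7 were above background on tumor blood macrophage low and 7 on normal blood macrophage high, while 0 were on tumor blood macrophage high and 0 on normal blood macrophage low. Tumor brain Gr1- had 3 of them. The names high and low therefore did not mark like cells in tumor-bearing and normal blood. Of 9 microglia markers, 9 were above background on the tumor blood Gr1- array, whose values had a Pearson's r of 0.96 with tumor MP over all genes, and 4 were on tumor blood Gr1+. Mbp, a myelin gene, was at 11.49 and 11.16 on the log2 scale on these blood arrays, against 9.65 and 9.41 on tumor brain Gr1- and Gr1+. The normal MP array had 9 of 10 neutrophil markers and 7 of 7 markers of border-associated macrophages above background. Tumor MP had all 9 microglia markers above background, with a summed signal of 15.12 on the log2 scale, against 14.99 on tumor MG. Background itself ran from 8.93 to 10.09 and was highest on normal blood macrophage high, where 11.2% of all genes were above it.

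The upstream sequences of the genes are shown first for 3 members. F7 and F10 lie next to each other on mouse chromosome 8, in that order, with Proz after F10, yet their values differed in range across the arrays, and Plaur is the member whose window held the most motif matches. Each line gives the 250 bases before a start site in the RefSeq table (GRCm38.p6), 5′ to 3′ on the gene's strand, with motif matches in capitals.
F10, chr8:13037058-13037307, plus strand: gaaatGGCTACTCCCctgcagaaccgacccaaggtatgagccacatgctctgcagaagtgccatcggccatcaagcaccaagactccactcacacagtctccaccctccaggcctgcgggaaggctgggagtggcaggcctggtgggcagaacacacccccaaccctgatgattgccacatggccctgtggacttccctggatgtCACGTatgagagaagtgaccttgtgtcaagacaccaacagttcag
F7, chr8:13025784-13026033, plus strand: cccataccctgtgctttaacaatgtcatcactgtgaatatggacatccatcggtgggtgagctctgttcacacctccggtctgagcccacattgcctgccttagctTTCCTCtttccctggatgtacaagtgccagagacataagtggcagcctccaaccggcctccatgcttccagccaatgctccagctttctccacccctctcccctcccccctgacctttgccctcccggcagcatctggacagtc
Plaur, chr7:24462233-24462482, plus strand: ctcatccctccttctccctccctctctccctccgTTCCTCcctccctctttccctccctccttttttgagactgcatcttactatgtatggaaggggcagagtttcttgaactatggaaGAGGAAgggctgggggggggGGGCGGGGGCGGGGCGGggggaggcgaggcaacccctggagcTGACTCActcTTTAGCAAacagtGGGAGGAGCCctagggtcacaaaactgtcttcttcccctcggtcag
The capitals mark, on either strand, matches to AP-1 (TGANTCA), PU.1 (GAGGAA), C/EBP (TTGCNNAA), SP1 (GGGCGG), HIF (ACGTG), NF-kB and the TATA box (TATAAA). In F10 they are an NF-kB match that starts 245 bases before the start site and a HIF match 45 bases before it, and in F7 a single PU.1 match. The Plaur window held 8 matches, of which 3 were SP1 matches close together, the last pair sharing a base, and 2 were PU.1 matches, with 1 each for AP-1, C/EBP and NF-kB. Of 7 members with a window in the table, 4 held a PU.1 match, 3 an AP-1 match, 3 an SP1 match, 3 an NF-kB match, 2 a C/EBP match, 1 a HIF match and 1 a TATA box, where F13a1 and Serpinb2 had 2 windows each. Among 32851 windows of the same length, 23.3% held PU.1, 6.75% AP-1, 32.7% SP1, 17.6% NF-kB, 9.56% C/EBP, 16.6% HIF and 12.4% the TATA box. These matches describe letters and not binding. Thbs1 and Plau have no entry.

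Across the 12 arrays, 8 of the 9 members were above background on at least 1 array, against 52% of all genes, and the median range of a member was 3.98 log2 units, against 1.39 for all genes. On tumor brain Gr1+ cells 7 of the 9 were above background, on each of tumor MG, normal MP, tumor MP and tumor blood Gr1+ 6, on tumor blood Gr1- and tumor blood macrophage high 5, on normal blood macrophage low 4, on tumor brain Gr1- 3 and on normal MG 2. The share of all genes above background was 35.2% on tumor brain Gr1+, 26.3% on tumor MG, 36.3% on normal MP and 32% on tumor MP. It was 32.3% on tumor blood Gr1+ and 37.7% on tumor blood Gr1-. On tumor blood macrophage high it was 34.9%, and on normal blood macrophage low 26.3%. On tumor brain Gr1- and normal MG it was 39.1% and 27.1%, so the members' counts on this pair lay near that of all genes. No member was above background on tumor blood macrophage low or normal blood macrophage high, where all 7 NK cell markers and 31.1% and 11.2% of all genes were.

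**Figure D1:**
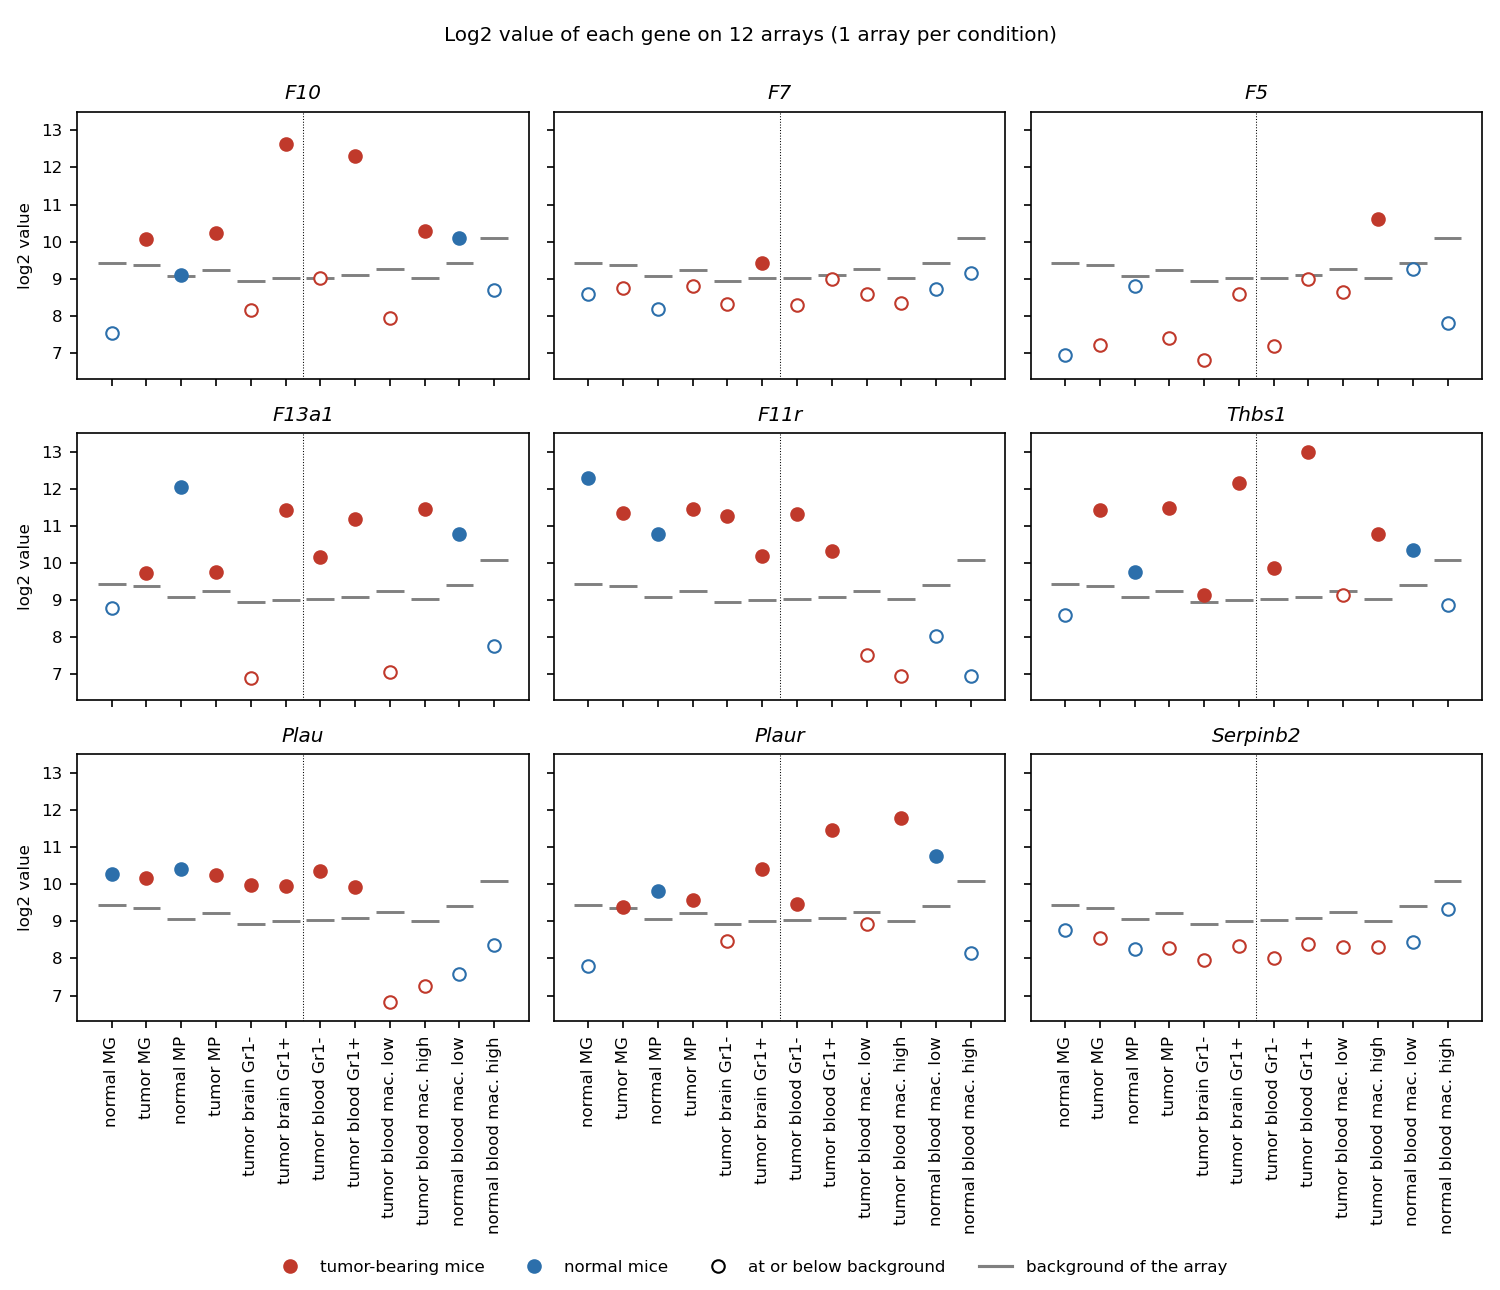
Log2 value (vertical axis) of each of the 9 genes on every array (horizontal axis, 12 in all), with brain arrays left of the dotted line, red for tumor-bearing and blue for normal mice, 1 point per array and no error bars. Gray bars mark the background of each array and open points lie at or below it, as all 12 do for Serpinb2, while F10 reached 12.63 on tumor brain Gr1+ cells.

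F10, the factor at which the start of the clotting chain meets its common end, was brightest in Gr1+ cells. It was at 12.63 on tumor brain Gr1+ and 12.32 on tumor blood Gr1+. It followed at 10.28 on tumor blood macrophage high, 10.23 on tumor MP, 10.09 on normal blood macrophage low, 10.08 on tumor MG and 9.10 on normal MP, close to its background of 9.07. It was not above background at 9.03 on tumor blood Gr1-, 8.70 on normal blood macrophage high, 8.17 on tumor brain Gr1-, 7.94 on tumor blood macrophage low and 7.53 on normal MG. The Gr1+ arrays thus stood 2.04 log2 units above the next array, and of 11 gaps between neighbours in this order only 2 exceeded the SD of olfactory receptor genes between the same arrays, a yardstick of noise used throughout.

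F7 and F5, the enzyme and the cofactor on either side of factor X, were mostly dim. F7, whose protein starts the chain with tissue factor, was above background on 1 array, tumor brain Gr1+, at 9.42 against a background of 9.01. Its other 11 values ran from 8.18 on normal MP to 9.15 on normal blood macrophage high, and none of its 11 neighbour gaps exceeded the noise. F5 was above background on 1 array, tumor blood macrophage high, at 10.61, with 9.25 on normal blood macrophage low against a background of 9.41. Its lowest value was 6.81 on tumor brain Gr1-. With the background at the 90th percentile, F7 was above it on 2 arrays and F5 on 4.

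F13a1, the catalytic A chain of factor XIII, had its highest value on normal MP, at 12.06. It was at 11.47 on tumor blood macrophage high, 11.44 on tumor brain Gr1+, 11.19 on tumor blood Gr1+ and 10.77 on normal blood macrophage low. Lower values above background were 10.16 on tumor blood Gr1-, 9.74 on tumor MP and 9.73 on tumor MG. It was below background at 8.78 on normal MG, 7.77 on normal blood macrophage high, 7.07 on tumor blood macrophage low and 6.90 on tumor brain Gr1-. The leading neighbours in this order, from normal MP down to normal blood macrophage low, did not differ by more than the noise from one array to the next.

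Thbs1 encodes thrombospondin-1, an adhesive glycoprotein of the matrix and of platelet granules. It was at 12.98 on tumor blood Gr1+, 12.17 on tumor brain Gr1+, 11.48 on tumor MP and 11.43 on tumor MG, and at 10.79 on tumor blood macrophage high and 10.34 on normal blood macrophage low. It was at 9.85 on tumor blood Gr1-, 9.76 on normal MP and 9.14 on tumor brain Gr1-, all above background, and below it at 9.14 on tumor blood macrophage low, 8.87 on normal blood macrophage high and 8.61 on normal MG. Thbs1 was thus above background on 9 arrays, the most of any member. Endothelial cells, another source of thrombospondin, had 3 of 6 markers above background on tumor brain Gr1+, with a summed signal of 12.60, the highest of the 12 arrays. The same count was reached on tumor brain Gr1-, with 11.33, and on tumor blood macrophage high, with 11.55. On tumor blood Gr1+ it was 2 of 6, with 11.58. Of these 6, Flt1, at 11.83 on tumor brain Gr1+, and Pecam1 were at least 2-fold higher on that array than on tumor blood Gr1+. Against tumor brain Gr1-, Flt1 alone was. Flt1 was also the 1 marker higher in tumor blood Gr1+ than Gr1- and in tumor blood macrophage high than low. Cdh5 and Tek were below background on every array. The part of endothelial cells in the Thbs1 value was not tested.

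F11r and Plau divided the arrays in another way. F11r was at 12.28 on normal MG and between 10.18 and 11.46 on the other 7 arrays of brain or of Gr1-sorted blood, and it was below background on all 4 blood macrophage arrays, at 6.95 to 8.04. Plau, which encodes urokinase, was between 9.92 and 10.42 on the same 8 arrays and below background, at 6.82 to 8.36, on the same 4. Among the 8 arrays no gap between neighbours in the order of Plau exceeded the noise. The blood Gr1- array, whose microglia markers were all above background, was among the 8, and the part of these markers in the values was not tested. On tumor brain Gr1+ and tumor blood Gr1+, 4 of 9 microglia markers were above background, with Tmem119 at 9.40 and 9.37 against 13.04 on normal MG.

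Plaur, the receptor that holds urokinase on the cell surface, did not follow Plau. It was at 11.78 on tumor blood macrophage high, 11.47 on tumor blood Gr1+, 10.75 on normal blood macrophage low and 10.40 on tumor brain Gr1+. It was at 9.82 on normal MP, 9.57 on tumor MP, 9.47 on tumor blood Gr1- and 9.40 on tumor MG, the last only just above its background of 9.37. It was below background at 8.93 on tumor blood macrophage low, 8.46 on tumor brain Gr1-, 8.13 on normal blood macrophage high and 7.80 on normal MG. Receptor and enzyme were thus both above background on 6 arrays, while Plau alone was on normal MG and tumor brain Gr1- and Plaur alone on tumor blood macrophage high and normal blood macrophage low. Serpinb2, the inhibitor of urokinase, was below background on all 12 arrays, with values from 7.96 to 9.33, so none of its differences is a measured change.

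Over the 12 arrays the members fell into patterns that are given as descriptions, since the arrays share cell types and are not independent. Pearson's r was 0.95 between F10 and Thbs1 and 0.92 between F11r and Plau. With Plaur it was 0.81 for F5, which was below background on 11 arrays, 0.78 for F13a1 and 0.77 for F10. The value was -0.23 between Plau and its receptor Plaur and 0.59 between the neighbours F7 and F10. Among 2654 genes above background on at least 2 arrays with a range of at least 2 log2 units, the 3 most like F10 were Mefv, which encodes pyrin, Slco3a1, an anion transporter, and Ecm1, a matrix protein, all with r = 0.97. Ecm1 was also the gene most like Thbs1, at 0.97, followed by Slfn4 at 0.96 and F10. The nearest to F13a1 were Cd93 at 0.97 and Chil3 and Arhgef37 at 0.93, and those to Plaur were Msrb1 and Apobr at 0.98 and Pstpip2 at 0.97. Plau was nearest to the scavenger receptor gene Stab1 at 0.98 and to Fmnl2 and Mt1 at 0.97, and F11r to Slc29a3 at 0.99 and to Frmd4b and Rab3il1 at 0.98.

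**Figure D2:**
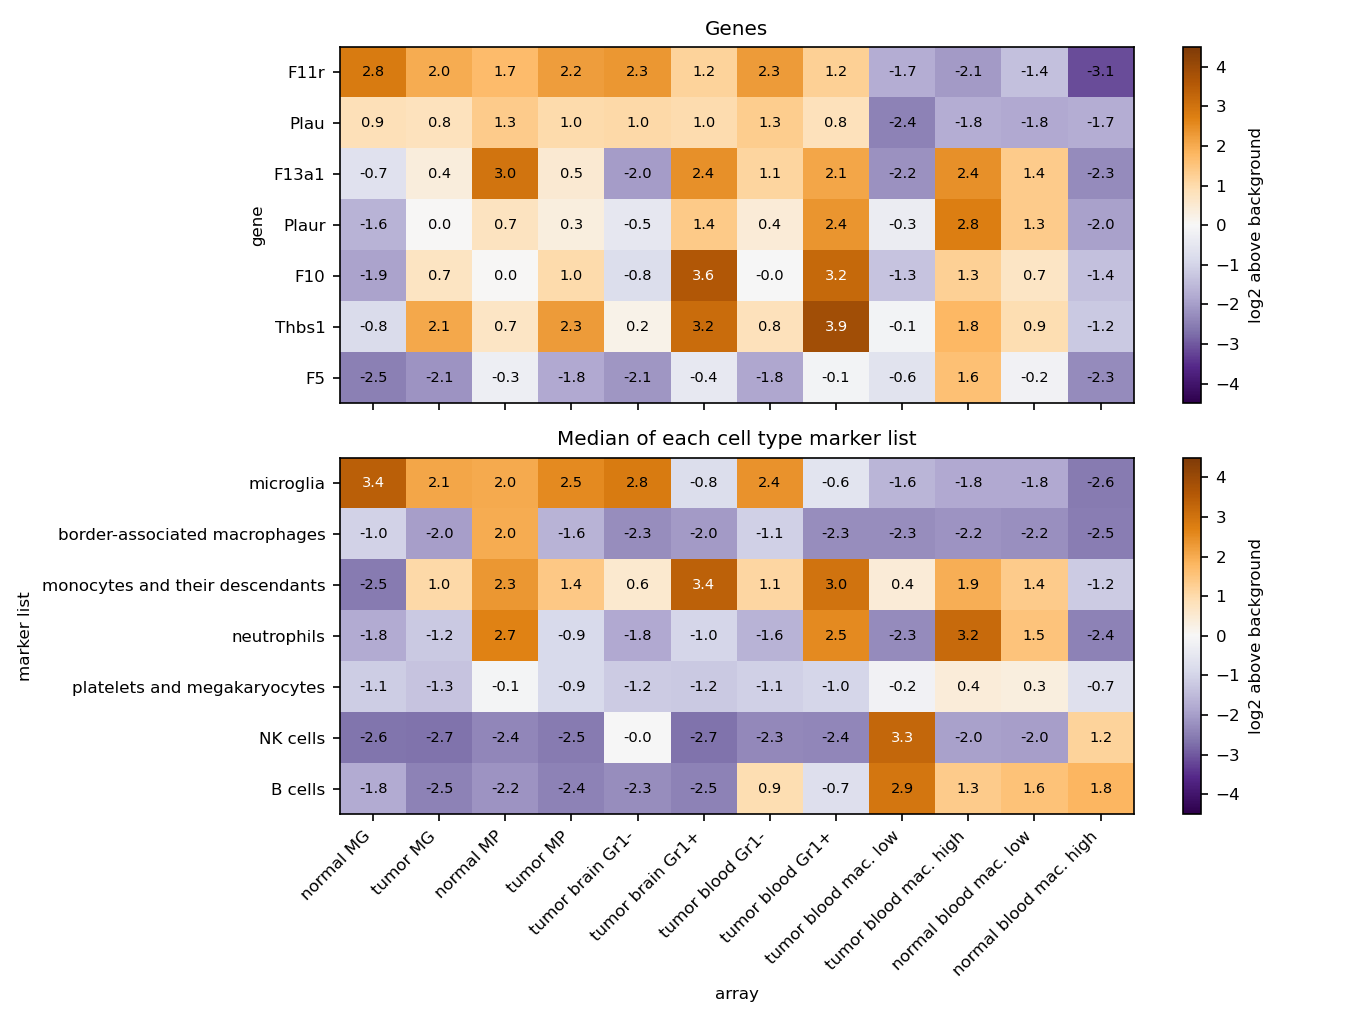
Log2 distance from the background of each array (color and printed value) for 7 members in the upper panel and for the median of 7 marker lists in the lower panel, over the 12 arrays (horizontal axis). F11r and Plau are above background on the 8 arrays of brain or Gr1-sorted blood, and no member is on the 2 arrays whose NK cell list is highest.

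The comparison of tumor MG with normal MG asked how microglia differ in the glioma. In tumor MG, Thbs1, F10 and Plaur exceeded normal MG by 2-fold or more, 3 of 9 members, where 1.37% of all genes were, and none was 2-fold lower, where 1.72% of all genes were. The log2 differences were 2.82 for Thbs1, 2.55 for F10 and 1.60 for Plaur. All 3 genes were below background in normal MG, and against the background level there Thbs1 was at least 3.99-fold and F10 at least 1.56-fold higher, while no bound can be given for Plaur. Counted with values raised to background, 1 member was 2-fold higher. F11r had -0.93, F13a1 0.95, with normal MG below background, and Plau -0.11, and F7, F5 and Serpinb2 were below background on both arrays. The median log2 difference of the 9 was 0.28, against -0.09 for all genes. Beside these values, 5 of 7 markers of the monocyte lineage were above background on tumor MG and 0 on normal MG, and their summed signal was at 13.56 and 10.29 on the log2 scale. Their part in these differences was not tested.

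The comparison of tumor MP with normal MP put the same question to cells sorted as macrophages. Thbs1 and F10 were at least 2-fold higher in tumor MP, 2 of 9 members against 0.747% of all genes, with log2 differences of 1.73 and 1.13. F13a1 was the 1 member at least 2-fold lower, against 2.57% of all genes, with a log2 difference of -2.31, which is 4.97-fold. Without the background requirement F5 would make 2 lower members. F10, Thbs1 and F13a1 were above background on both arrays, although F10 in normal MP was so by a small margin. Plaur, F11r and Plau differed by -0.25, 0.67 and -0.18, with F5 below background on both arrays at 8.81 in normal MP and 7.40 in tumor MP. The median of the 9 was 0.02, against 0.12 for all genes. Border-associated macrophage markers, a cell type in which F13a1 is known to be expressed, were above background in 7 of 7 on normal MP and 1 of 7 on tumor MP, with a summed signal of 14.53 and 10.93. Neutrophil markers were above it in 9 of 10 and 1 of 10, with 15.77 and 11.98. Their part in the lower F13a1 was not tested. Microglia markers were above background in 9 of 9 on both arrays, with a summed signal of 15.12 on tumor MP and 14.30 on normal MP. Of these 9, 4 were at least 2-fold higher in tumor MP and 0 lower. The part of microglia in the differences between these arrays was not tested.

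Normal MP differed from normal MG in more of the members. F13a1, Plaur, F10 and Thbs1 were at least 2-fold higher in MP, 4 of 9 against 3.26% of all genes, with log2 differences of 3.28, 2.02, 1.57 and 1.15. In normal MG all 4 were below background, and F13a1 was at least 6.15-fold higher, Plaur at least 1.30-fold and Thbs1 at least 1.25-fold, while no bound can be given for F10. With values raised to background, F13a1 was the 1 member past 2-fold. F11r was lower in MP, by 2.81-fold from 12.28 to 10.79, and was the 1 member of 9 lower, against 1.4% of all genes. The median of the 9 was 1.15, against -0.22 for all genes. In the same comparison, markers were at least 2-fold higher in 6 of 7 of the monocyte lineage, with a summed signal of 13.81 against 10.29, in 9 of 10 of neutrophils, with 15.77 against 11.06, and in 7 of 7 of border-associated macrophages, with 14.53 against 11.25. Microglia markers were lower in 9 of 9, with 14.30 against 15.99. The part of these cells was not tested. Tumor MP and tumor MG, in contrast, differed in 0 of 9 members, against 0% of all genes higher and 0.00502% lower, and the log2 differences ran from -0.29 for Serpinb2, below background on both arrays, to 0.18 for F5, also below it. For the 6 members above background on both arrays they ran from 0.01 for F13a1 to 0.17 for Plaur. Both tumor arrays are used in the comparisons with normal cells, so the differences found there share nearly the same tumor values.

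**Figure D3:**
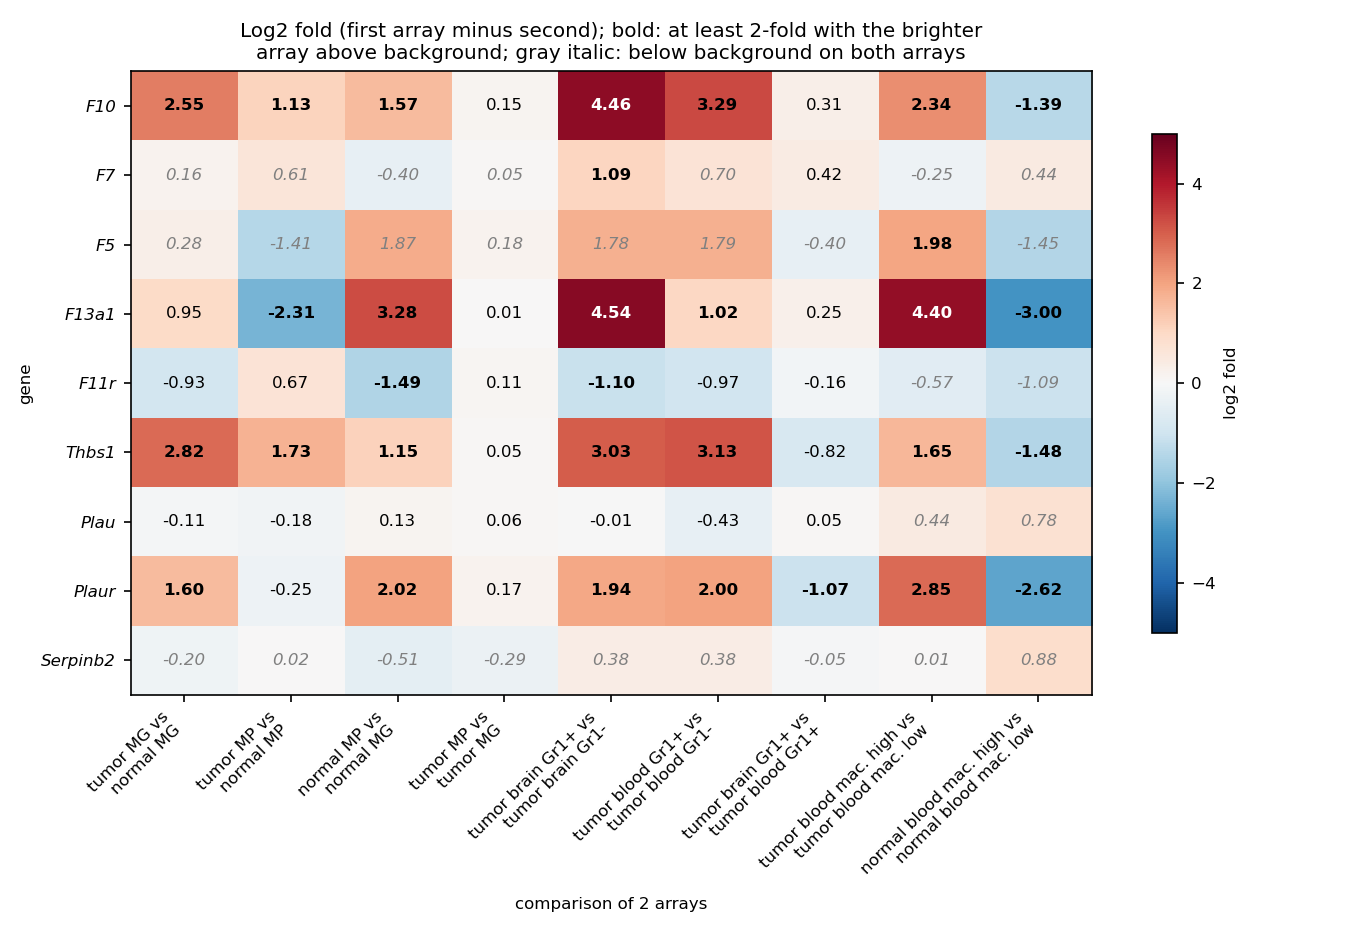
Log2 fold of the 9 genes (vertical axis) in 9 comparisons of 2 arrays (horizontal axis), colored by its log2 size, bold for at least 2-fold with the brighter array above background and gray italics for genes below background on both arrays. Tumor MP and tumor MG differ by at most 0.17 in genes above background on both, and F13a1 is higher by 4.54 in tumor brain Gr1+ than in Gr1- cells.

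Gr1+ cells of the tumor had more of the members than Gr1- cells. F13a1, F10, Thbs1, Plaur and F7 were at least 2-fold higher in Gr1+ cells, 5 of 9 against 2.13% of all genes. The log2 differences were 4.54 for F13a1, 4.46 for F10, 3.03 for Thbs1, 1.94 for Plaur and 1.09 for F7. Thbs1 was above background on both arrays, in Gr1- cells by a small margin at 9.14 against 8.93, and was 8.15-fold higher. The other 4 were below background in Gr1- cells, and against that level F10 was at least 12.9-fold, F13a1 at least 5.68-fold, Plaur at least 2.76-fold and F7 at least 1.40-fold higher. F11r was 2.14-fold lower, from 11.27 to 10.18, as 1 member of 9 against 3.13% of all genes, and Plau was at 9.97 and 9.98. The median of the 9 was 1.78, against 0.04 for all genes. Markers of monocytes were above background in 7 of 7 on Gr1+ and 5 of 7 on Gr1- cells, with a summed signal of 15.30 and 12.42, and microglia markers in 4 of 9 and 9 of 9, with 12.22 and 15.26. Neutrophil markers were above it in 1 of 10 and 0 of 10, and NK cell markers in 0 of 7 and 3 of 7, with a summed signal of 9.50 and 12.11. The part of these cell types was not tested.

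In the blood of tumor-bearing mice, F10, Thbs1, Plaur and F13a1 were at least 2-fold higher in Gr1+ than in Gr1- cells, 4 of 9 against 2.46% of all genes. The log2 differences were 3.29, 3.13, 2.00 and 1.02, and F10 was at least 9.81-fold higher than its background in Gr1- cells. F13a1 stood only just past 2-fold here, from 10.16 to 11.19. No member was 2-fold lower, where 2.41% of all genes were, although F11r had -0.97 and Plau -0.43. The median of the 9 was 1.02, against -0.07 for all genes. The blood Gr1- array had all 9 microglia markers above background with a summed signal of 14.92, against 12.29 on blood Gr1+. Neutrophil markers were at least 2-fold higher on blood Gr1+ in 7 of 10, with a summed signal of 15.14 against 10.74, and monocyte markers in 7 of 7, with 14.93 against 13.32. B cell markers were lower there in 5 of 5, with 10.84 against 12.37, and the part of these cells in the differences was not tested.

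Gr1+ cells of the tumor and of the blood differed by 2-fold in a single member. Plaur was 2.10-fold lower in the tumor, at 10.40 against 11.47, as 1 member of 9 against 1.16% of all genes, and none was 2-fold higher, where 0.682% of all genes were. Thbs1 had -0.82, F10 0.31, F13a1 0.25, F11r -0.16 and Plau 0.05, and the median of the 9 was -0.05 against 0.01 for all genes. Neutrophil markers were above background in 1 of 10 on tumor brain Gr1+ and 7 of 10 on tumor blood Gr1+, with a summed signal of 11.56 and 15.14. Brain cell markers were also at least 2-fold lower on tumor brain Gr1+ than on the array labelled tumor blood Gr1+. Oligodendrocyte markers were so in 2 of 4, with a summed signal of 10.65 against 12.03. Astrocyte markers were so in 2 of 5, with 11.12 against 12.35. The part of these cells in the Plaur difference was not tested.

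In the blood macrophage arrays the names high and low went with opposite differences. In tumor-bearing mice 5 of 9 members were at least 2-fold higher in high than in low, against 5.55% of all genes, and none was lower, where 2.39% were. They were F13a1 with a log2 difference of 4.40, Plaur with 2.85, F10 with 2.34, F5 with 1.98 and Thbs1 with 1.65. Against the background in low, Plaur was at least 5.75-fold, F13a1 at least 4.64-fold, Thbs1 at least 2.90-fold, F5 at least 2.57-fold and F10 at least 2.04-fold higher. In normal mice 4 of 9 members were at least 2-fold lower in high than in low, against 8.67% of all genes, and none was higher, where 0.481% were. They were F13a1 with -3.00, Plaur with -2.62, Thbs1 with -1.48 and F10 with -1.39. In these mice the brighter low array was at least 1.61-fold higher for F13a1, 1.59-fold for Plaur and 1.19-fold for Thbs1 over the high background of the other array, and with values raised to background 0 members were 2-fold apart. The medians of the 9 were 1.65 and -1.39, against -0.21 and 0.39 for all genes.

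The 2 blood macrophage arrays with these members also held more monocyte and neutrophil signal. Monocyte markers had a summed signal of 14.79 on tumor high and 14.25 on normal low, against 12.64 and 11.97 on tumor low and normal high, and neutrophil markers 15.85 and 14.92 against 10.74 and 11.48. NK cell markers had 9.84 and 10.26 against 15.48 and 14.66. B cell markers were above background in 5 of 5 on each of these arrays, with 12.98 and 13.32 against 14.73 and 13.99. They were at least 2-fold lower in high than in low in 5 of 5 in tumor-bearing mice. In normal mice 1 of 5 was higher. Platelets, which carry factor V, factor XIII and thrombospondin, could bear on these genes in blood, and 5 of 6 platelet markers were above background on tumor high, 4 on normal low and 1 on each of the other 2, with a summed signal of 12.09, 12.64, 11.93 and 12.37. Of these 6, Clec1b alone was at least 2-fold higher in high than in low of tumor-bearing mice. In normal mice Ppbp alone was at least 2-fold lower in high. Thbs1 and F10 had their highest values on tumor brain Gr1+ and tumor blood Gr1+. There 1 of the 6 markers was above background, with a summed signal of 11.28 and 11.35. The part of these cells in the values was not tested.

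The rest of the system was read through a list of 74 genes, of which 66 had a probe set with that symbol alone. Of these, 32 were above background on at least 1 array, a share near the 52% of all genes. The list was written with earlier results of these data known. Of the 66, counted as above, 1 was higher and 1 lower in tumor than in normal MG, where 1.37% and 1.72% of all genes were. In the same order, tumor against normal MP had 0 and 6 (0.747% and 2.57% of all genes). Normal MP against normal MG had 8 and 2 (3.26% and 1.4%). Tumor MP against tumor MG had 0 and 0 (0% and 0.00502%). Gr1+ against Gr1- cells had 4 and 4 in tumor brain (2.13% and 3.13%) and 3 and 4 in tumor blood (2.46% and 2.41%). Tumor brain against tumor blood Gr1+ cells had 2 and 0 (0.682% and 1.16%). Blood macrophage high against low had 6 and 4 in tumor-bearing mice (5.55% and 2.39%) and 0 and 8 in normal mice (0.481% and 8.67%). The medians of the 66 ran from -0.27 for normal MP against normal MG to 0.43 for normal blood macrophage high against low.

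Among the other clotting factors, 4 of 15 were above background anywhere, against 52% of all genes. Vkorc1, which recycles the vitamin K that the carboxylation of factors VII and X needs, was highest on tumor brain Gr1-, at 10.80, and lower in Gr1+ than in Gr1- cells by a log2 difference of -1.59 in the tumor and -1.23 in the blood. Vkorc1l1, F8 and F12 spanned 0.77, 1.34 and 1.22 log2 units over all arrays. Vkorc1 was below background on tumor blood Gr1+. The gene of tissue factor, F3, and the genes of prothrombin and of the fibrinogen chains, F2, Fga, Fgb and Fgg, were measured and were above background on no array.

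The anticoagulants gave 6 of 11 above background on at least 1 array, near the 52% of all genes. Pros1, which encodes the vitamin K-dependent protein S, was at 11.36 on normal MG, and its log2 difference was -1.88 in tumor and -2.79 in blood Gr1+ against Gr1- cells. Tfpi, the inhibitor of tissue factor with factor VIIa, was at 10.82 on tumor brain Gr1- and had -2.85 and -2.65 in the same comparisons, the opposite direction to F10. Tfpi was below background on both Gr1+ arrays and Pros1 on the blood one, so these sizes rest partly on values below background. Thbd, which encodes thrombomodulin, was at 10.65 on normal blood macrophage low and went with F13a1 in its sign, with 2.22 in normal MP against normal MG, -1.60 in tumor against normal MP, and 3.12 and -2.62 in high against low blood macrophages of tumor-bearing and normal mice. In all 4 of these comparisons the dimmer array of Thbd was below background, so the sizes are not measured folds. Tfpi2, Serpind1 and Serpinc1 spanned 1.08, 1.12 and 1.13 log2 units over the 12 arrays.

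Of the plasminogen genes, Anxa2 and S100a10, whose proteins form a cell surface complex that binds plasminogen, were higher in Gr1+ cells. Their log2 differences were 1.74 and 1.85 in the tumor and 1.98 and 1.26 in the blood, and S100a10 had 1.90 in tumor against normal MG. Both were below background on normal MG, at 7.42 and 8.61. In blood macrophage high against low of tumor-bearing mice they had opposite signs, with 1.06 for Anxa2 and -1.14 for S100a10, whose highest value, 12.86, was on tumor blood macrophage low. Plg and Plat, the genes of plasminogen and of tissue plasminogen activator, were measured and were above background on no array. Serpinb8 was at 9.65 on tumor brain Gr1+, above a background of 9.01, and below background on Gr1- cells, and Serpinb10, which lies next to Serpinb2, was at 10.99 on tumor blood macrophage high and 10.85 on normal blood macrophage low, where Serpinb2 was at 8.31 and 8.45.

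The receptors around these genes were not uniform. Cd47, a receptor for thrombospondin-1, was above background on all 12 arrays with a range of 1.17. Cd36, another, had -2.02 in tumor and -1.26 in blood Gr1+ against Gr1- cells, the opposite sign to Thbs1, and was below background on both Gr1+ arrays. Its sign was also opposite in tumor against normal MP, at -1.20. Cd36 had the sign of Thbs1 in normal MP against normal MG, at 2.89. It also did in blood macrophage high against low, at 3.04 in tumor-bearing and -2.89 in normal mice. In these comparisons of like sign its dimmer array was below background. Itga5, an integrin chain that works with the urokinase receptor, had 1.83 in tumor and 1.41 in blood Gr1+ against Gr1- cells. The first had Gr1- cells below background, and Itga5 went with Plaur in both. Jam2, a relative of F11r, was above background on normal MG alone, at 10.15, which was also the brightest array for F11r. F2r, the thrombin receptor, was above background only on tumor blood macrophage low, at 11.18, one of the arrays with NK cell markers.

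**Figure D4:**
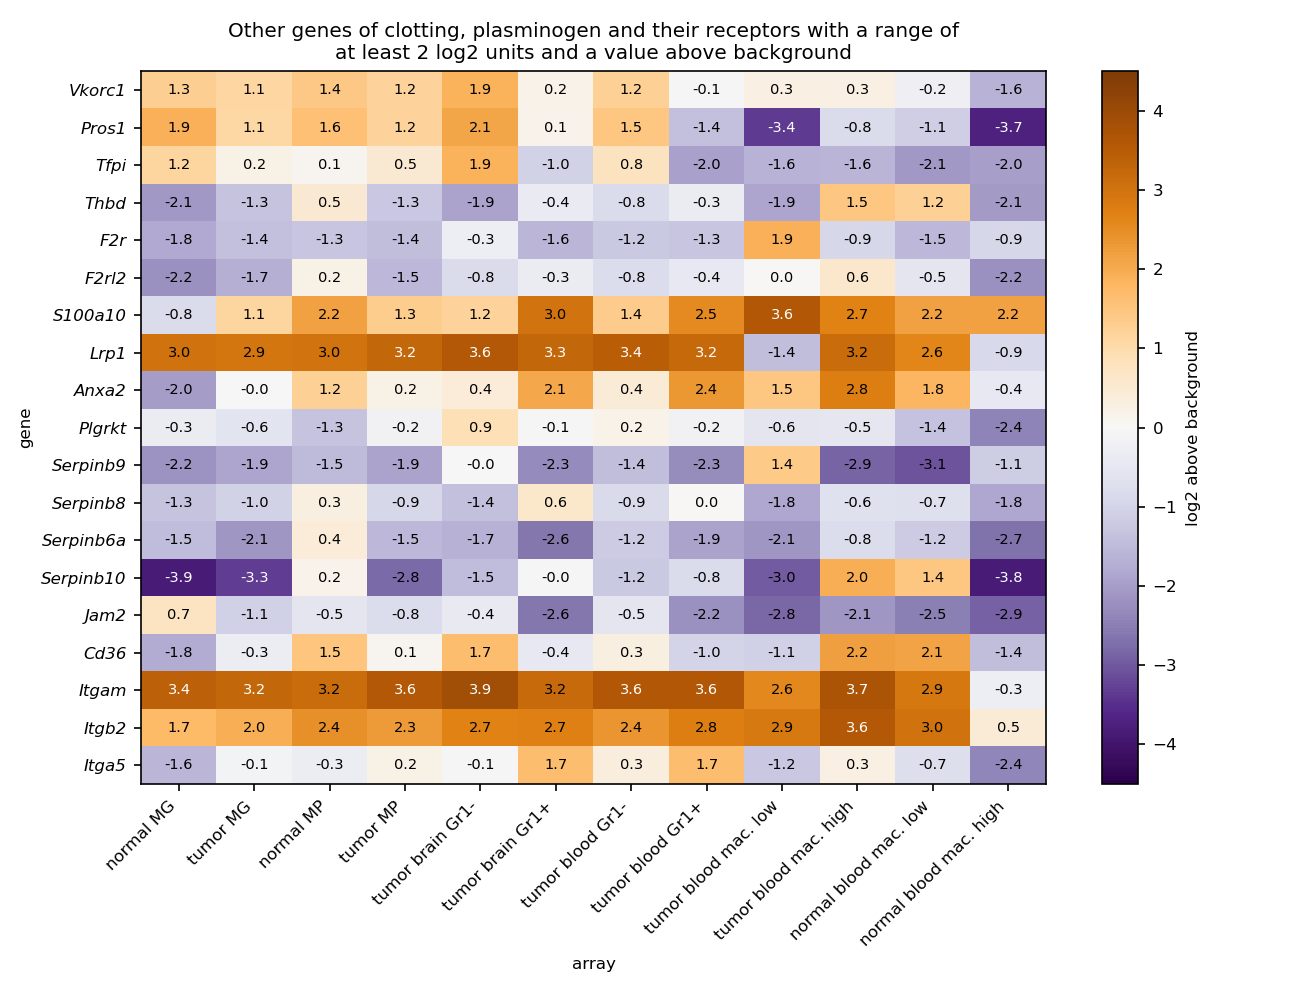
Log2 distance from the background of each array (color and printed value) for 19 other genes of clotting, plasminogen and their receptors with a range of at least 2 log2 units and at least 1 array above background (vertical axis), over the 12 arrays (horizontal axis). Pros1 and Tfpi are lower on the Gr1+ than on the Gr1- arrays, and Anxa2 and S100a10 are higher there.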

How the data were processed

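Sorted cells gave RNA that the authors amplified in 2 cycles and hybridized to Affymetrix Mouse Gene 1.0 ST arrays, 12 in all. The deposited values are log2 expression values, which the authors obtained by background correction and normalization with Expression Console software. RMA is named in the submitters' notes, with no version. Taken out of log2, every value is a multiple of 0.01 and none is under 1. The upper quartile (percentile 75) differed between arrays, from 9.40 to 9.73, so scaling can move small differences. The annotation release and genome build are not given in the sources used here.

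Of 28944 probe sets, 21789 carry 1 symbol in the platform annotation, 1621 several and 5534 none, and only the first were used. For 999 genes with more than 1 probe set the brightest was kept, which left 19938 genes. No rescaling and no filter was applied. For 9 pairs of arrays the log2 values were subtracted, and a gene was counted when at least 2-fold apart with the brighter array above background. Where the dimmer array was below background, "at least" folds were taken against its background level. The methods of the study name adjusted p-values, which single arrays cannot give. The number of arrays limits the precision. The 95th percentile of olfactory receptor genes served as background, and the SD of their differences was the yardstick of noise, which is not a replicate error. Members, gene lists and motifs were chosen with earlier results of these data known. Named genes are the 9 members, list genes above background, and for each member above background on 2 arrays the 3 genes with the highest Pearson's r. A few list genes below background and single markers were named after their values were seen. Other settings tried were cyclic loess and quantile normalization, median centring, averaging all probe sets per gene, no background requirement, the 90th percentile as background and values raised to background. The counting was tested on simulated data. Python 3.11.15, numpy 2.4.6, pandas 2.3.3, R 4.3.3 and limma 3.58.1 were used.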

Additional observations from a re-analysis of the deposited data

Results flagged for a closer look

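In 2 pairs of comparisons under the same contrast, the deposited values of members differed in opposite directions by more than the spread of olfactory receptor genes, and with 1 array per condition none of these differences was tested. For F13a1 the log2 difference of tumor from normal cells was 0.95 in MG and -2.31 in MP. Normal MG was below background for F13a1, and with values raised to background its difference in MG was 0.30, inside the spread of 0.41. F11r had -0.93 in MG and 0.67 in MP. Both tumor arrays were nearly equal for these genes, so the opposite signs go with the normal arrays, where F13a1 was at 8.78 in MG and 12.06 in MP and F11r at 12.28 and 10.79. The 9 microglia markers had the same signs as F11r, with a median log2 difference of -1.01 in MG and 0.82 in MP. Their part in the F11r values was not tested.

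Between blood macrophage high and low, 4 members had opposite signs in tumor-bearing and normal mice. F10 had 2.34 and -1.39, F13a1 4.40 and -3.00, Thbs1 1.65 and -1.48 and Plaur 2.85 and -2.62. On normal blood macrophage high all 4 lay below a background of 10.09, the highest of the 12 arrays. With values raised to background the differences in normal mice were -0.68 for F13a1, -0.67 for Plaur, -0.25 for Thbs1 and -0.0027 for F10, the last pair inside the spread of 0.34. NK cell markers were above background on low in tumor-bearing mice and on high in normal mice.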

How the results depend on the processing

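Of 126 recomputed counts of members at least 2-fold apart, 120 stayed within 1.5 times their value as deposited and 6 did not. With values raised to background, the members higher in tumor than in normal MG went from 3 to 1, those higher in normal MP than in normal MG from 4 to 1, and those lower in normal blood macrophage high than in low from 4 to 0. The members lower in tumor than in normal MP went from 1 to 2 with no background requirement and from 1 to 2 with the 90th percentile as background. After quantile normalization, 1 member was lower in tumor blood Gr1+ than in Gr1- cells, against 0 as deposited. Raising values changes only genes with a dim array, by construction. It also turned 2 of 486 recomputed log2 differences, Plaur in tumor against normal MG to -0.036 and F10 in normal MP against normal MG to -0.33, and 31 others moved by more than the spread of olfactory receptor genes. Rescaling moved the median log2 difference of all genes most after cyclic loess normalization in normal blood macrophage high against low, from 0.39 to 0.06. No paired analysis was possible because each condition has 1 array, and no array could be left out of a comparison for the same reason. Signal over background limits F7, F5 and Serpinb2 most.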
